A study of Rattus norvegicus with 30 samples.

Results

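The genes of the complement system were followed in rat liver after partial hepatectomy, a surgery that leaves a liver remnant of a chosen size. They came from a list of 38 complement genes, and a gene counted as measured where a probe set of the array carried its symbol and no other. By this rule 32 of the 38 genes were measured, each by 1 probe set, among 18166 genes measured in the same way. C2, Cfi, Cd59 and C5ar1 are not analysed here. C4a and C4b share a probe set that carries both symbols, which is given separately as C4a or C4b.

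Liver RNA of 30 wild-type Wistar rats was hybridised to Rat Gene 2.0 ST arrays of Affymetrix, with 1 array for each rat and 6 rats per group. The groups were unoperated rats, sham-operated rats, and rats with a resection of 30% (PH30), 70% (PH70) or 90% (PH90) of the liver. The operated rats were killed 24 hours after surgery, and RNA came from a piece of liver of 2 x 2 mm. Neither age nor sex is given in the sources used here. The removed share is the only stated difference between the resected groups, and no group carried a drug or an altered gene. Values are the authors' log2 values, centred so that each probe set has a median of 0 over the 30 arrays: a difference of 1 is a 2-fold change, and the level itself is lost. No gene's level is therefore set against another's, and whether hepatocyte markers were abundant in these samples cannot be read from the values. In whole liver tissue, fewer cells of a type and less RNA per cell cannot be told apart.

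Complement is a cascade of plasma proteins that marks microbes and damaged cells and lyses or clears them. It is started by C1 on antibodies (classical pathway), by mannose-binding lectins, collectins and ficolins on sugars (lectin pathway), or by spontaneous turnover of C3 that factors B and D and properdin amplify (alternative pathway). All routes meet at the cleavage of C3 and C5 and end in a membrane pore of C5b to C9. Hepatocytes secrete most of these proteins into plasma, and macrophages, the Kupffer cells of the liver among them, make C1q, properdin and ficolins. C3a and C5a signalling is known from mice to be needed for normal liver regeneration, and several complement genes belong to the acute phase response to injury.

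Arrays within the groups were of unequal likeness. A rat's mean correlation with the other rats of its group, over all genes, was 0.755 to 0.827 in PH90. It was -0.113 for PH30 rat 95, against 0.180 to 0.245 for the other PH30 rats, and -0.114 for PH70 rat 139, against 0.49 to 0.546 for the other PH70 rats. Both rats were kept, and each comparison's calls without them are given beside it. The unoperated rats carry the highest rat numbers, 145 to 152, against 37 to 143 in all other groups. The labels do not say whether the number follows an order. If it does, that order and the lack of an operation cannot be told apart. Comparisons of a resection with sham share the same 6 sham rats.

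The complement genes made by hepatocytes fell after the 90% resection, and the median fall of those made by macrophages was smaller. Of the 19 measured hepatocyte-made genes, 18 were lower in PH90 than in sham livers, with a median log2 difference of -0.98. Of the 7 measured macrophage-made genes, 3 were lower, with a median of -0.25. These counts were 18 of 19 and 5 of 7 without rats 95 and 139, with C1qa and C1qc added. The share of all genes called in that fit is not given here. C3ar1, which encodes a receptor, and Fcnb were called in neither fit, so the counts depend on which genes the class holds. Among all 18166 genes 34.6% were called in PH90 against sham, 14.7% lower and 19.9% higher, with a median of -0.0022. The call is limma's adjusted p below 0.05 throughout. The source of each gene was assigned from textbook knowledge, as hepatocyte-made (C1r, C1s, C3, C5, C6, C8a, C8b, C8g, C9, Cfb, C4bpa, C4bpb, Mbl1, Mbl2, Masp1, Masp2, Serping1, Vtn and Clu) or macrophage-made (C1qa, C1qb, C1qc, Cfp, C3ar1, Fcna and Fcnb). C7, Cfd, Cd55, Cd46, Colec10 and Colec11 were left as of other or mixed source. These classes were written with earlier results of these data known.

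The mean of the 19 hepatocyte-made genes ran per rat between -0.14 and 0.0076 in unoperated livers, between 0.22 and 0.28 in sham, between 0.0023 and 0.20 in PH30, between -0.24 and 0.30 in PH70 and between -1.21 and -0.52 in PH90. The PH90 rats lay below all others, and sham lay above unoperated without overlap. The mean of the 7 macrophage-made genes ran between -0.26 and -0.00012 in unoperated livers, between 0.0026 and 0.32 in sham, between -0.31 and 0.35 in PH30, between -0.26 and 0.30 in PH70 and between -0.41 and -0.06 in PH90. PH90 lay below sham here too, but overlapped unoperated, PH30 and PH70. The hepatocyte-made mean minus the macrophage-made mean was 0.04 ± 0.07 in unoperated, 0.12 ± 0.11 in sham, -0.02 ± 0.18 in PH30, -0.01 ± 0.06 in PH70 and -0.59 ± 0.35 in PH90 (SD, n = 6 each). It ran between -0.04 and 0.16 in unoperated, -0.04 and 0.25 in sham, -0.16 and 0.31 in PH30, -0.12 and 0.05 in PH70 and -1.03 and -0.11 in PH90. PH90 lay below sham without overlap, and PH90 rat 43, the highest of PH90, lay within the range of PH30 and PH70. These class means describe chosen genes and carry no test. Against sham, the median difference of the hepatocyte-made genes was -0.10 in PH30, -0.28 in PH70 and -0.98 in PH90, and that of the macrophage-made genes was 0.02 in PH30, -0.12 in PH70 and -0.25 in PH90.

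**Figure D1:**
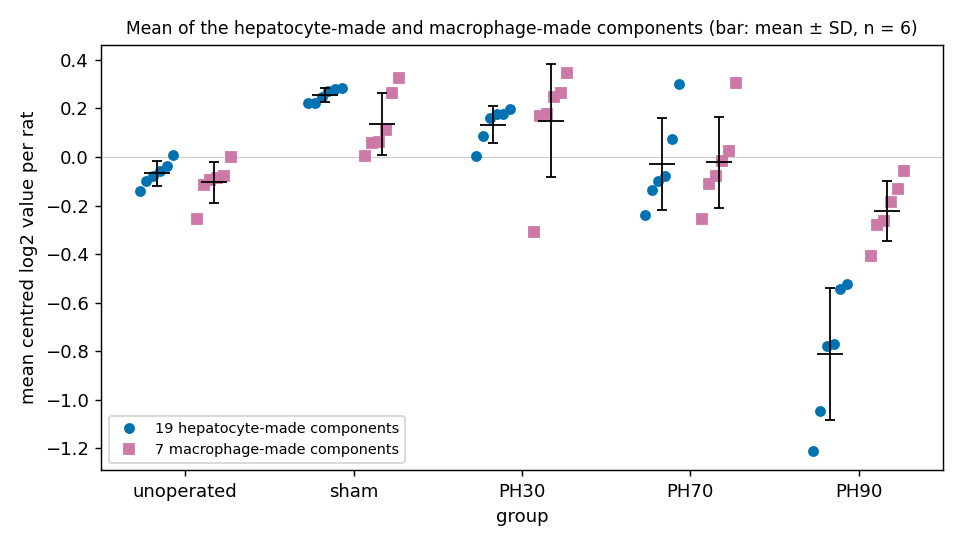
Mean centred log2 value of the 19 hepatocyte-made and the 7 macrophage-made complement genes in each rat (points), with the group mean ± SD (bars, n = 6), for unoperated, sham, PH30, PH70 and PH90 livers. The hepatocyte-made mean of every PH90 rat, -1.21 to -0.52, lies below that of every other rat, while the macrophage-made mean of PH90, -0.41 to -0.06, overlaps that of the unoperated, PH30 and PH70 rats.

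**Figure D2:**
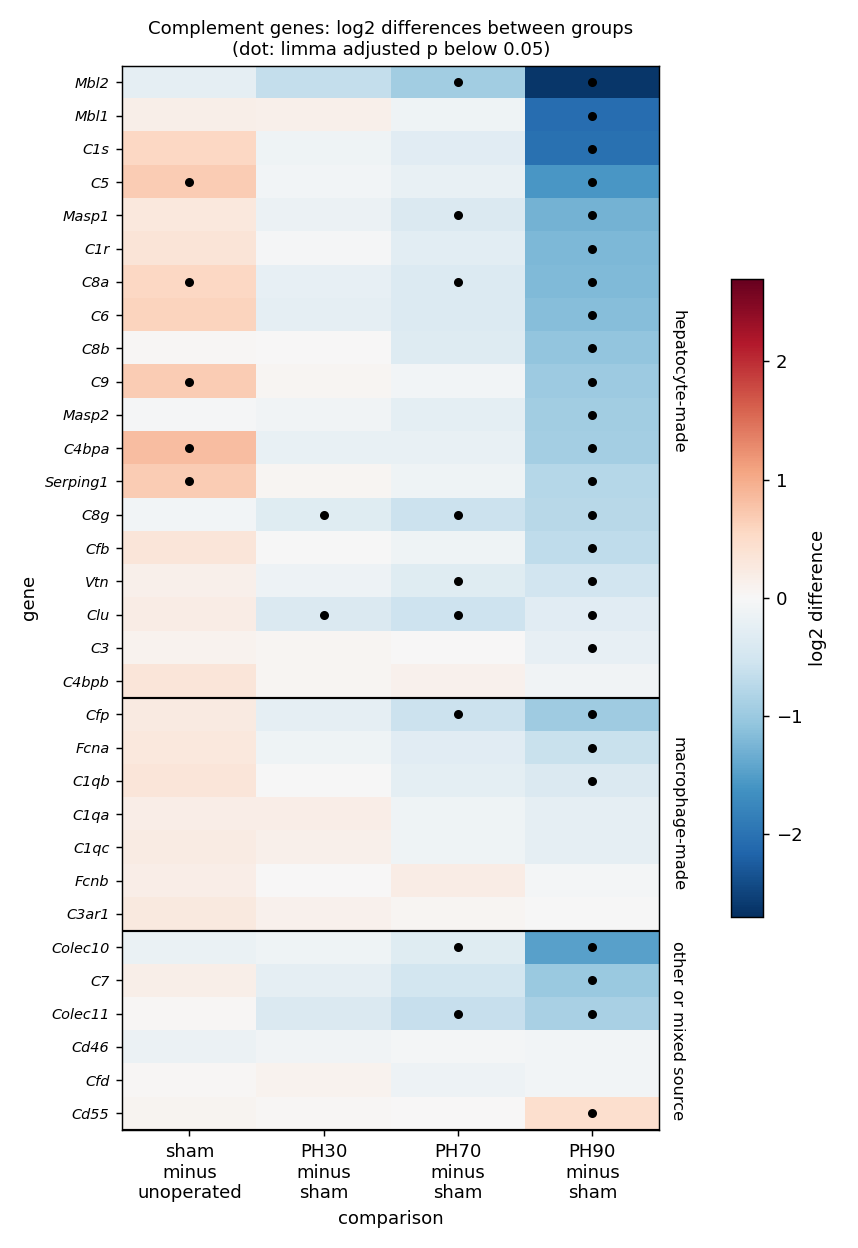
Log2 difference of each of the 32 measured complement genes (down the page, by class) in sham minus unoperated, PH30 minus sham, PH70 minus sham and PH90 minus sham (across). Blue is lower and red is higher in the group named first, and a dot marks a limma adjusted p below 0.05: 5, 2, 9 and 25 genes in the 4 comparisons.

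Part of the hepatocyte-made complement was higher after the sham operation than without an operation. Sham livers were higher than unoperated livers for 5 of the 32 genes and lower for 0, against 0.738% called among all genes, 0.308% higher and 0.429% lower. At an unadjusted p below 0.05, 17 of the 32 were higher and 0 lower, against 903 higher and 1104 lower of all 18166 genes. The 5 genes were C4bpa, Serping1, C5, C9 and C8a, all of them among the hepatocyte-made genes: 3 are terminal components and 2 are soluble inhibitors. The median difference was 0.32 over the hepatocyte-made genes, 0.23 over the macrophage-made genes and 0.0037 over all genes. None of the 7 macrophage-made genes was called by limma, although all 7 differences were above 0 and 4 had an unadjusted p below 0.05.

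C4bpa encodes the alpha chain of C4b-binding protein, an inhibitor of the classical and lectin C3 convertase. Its value had a lowest, median and highest of 0.15, 0.29 and 0.39 in sham livers, against -0.67, -0.53 and -0.35 in unoperated livers, a difference of 0.82 or 1.77-fold (SE 0.08, adjusted p = 1.1e-07). Every sham rat lay above every unoperated rat, and the same held for the other 4 genes. How many of all genes separate in this way is not given here. Serping1, the C1 inhibitor, lay at 0.06, 0.20 and 0.44 in sham livers, against -0.65, -0.48 and -0.26 in unoperated livers (0.68, SE 0.11, adjusted p = 0.00088). C5, whose cleavage starts the pore, lay at 0.13, 0.19 and 0.40 in sham, against -0.53, -0.44 and -0.36 in unoperated livers (0.68, SE 0.12, adjusted p = 0.0026). C9, which polymerises into the pore, lay at 0.03, 0.11 and 0.26 in sham, against -0.75, -0.54 and -0.49 in unoperated livers (0.69, SE 0.13, adjusted p = 0.0071). C8a, the alpha chain of C8, lay at 0.31, 0.39 and 0.44 in sham, against -0.24, -0.19 and 0.03 in unoperated livers (0.55, SE 0.09, adjusted p = 0.001). These 5 calls held when any single rat was left out. In a fit with the sham and unoperated rats alone 11 complement genes were higher, with array weights 9, and without rats 95 and 139 it was 7, with C6 and Cfb added. All of them were hepatocyte-made. The share of all genes called in these other fits is not given here.

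Promoters are shown for 3 of the genes that were higher in sham and lower in PH90, to let their sequence be set beside their values. Each runs from 250 bases before to 50 bases after the start site listed with it in the RefSeq promoter table (assembly GRCr8), 5′ to 3′ on the gene's own strand. That site is the outer edge of the gene for C5 and C8a, and lies 81 bases inside the gene for C4bpa. Capitals mark matches to a C/EBP pattern (TTNNGNAA), a STAT pattern (TTCNNNGAA) or an HNF1 pattern (GTTAAT, any base, then ATT) on either strand. C/EBP, STAT3 and HNF1 factors are known regulators of liver-specific and acute phase genes. The C5 promoter is at chr3:38759419-38759718 (minus strand), that of C8a at chr5:124866582-124866881 (minus strand) and that of C4bpa at chr13:44663422-44663721 (minus strand).
C5: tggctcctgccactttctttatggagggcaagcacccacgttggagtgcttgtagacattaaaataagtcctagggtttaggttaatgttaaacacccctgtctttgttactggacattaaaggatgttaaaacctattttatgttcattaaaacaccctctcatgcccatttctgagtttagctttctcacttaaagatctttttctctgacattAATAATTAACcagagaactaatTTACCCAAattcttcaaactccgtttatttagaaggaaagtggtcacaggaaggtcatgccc
C8a: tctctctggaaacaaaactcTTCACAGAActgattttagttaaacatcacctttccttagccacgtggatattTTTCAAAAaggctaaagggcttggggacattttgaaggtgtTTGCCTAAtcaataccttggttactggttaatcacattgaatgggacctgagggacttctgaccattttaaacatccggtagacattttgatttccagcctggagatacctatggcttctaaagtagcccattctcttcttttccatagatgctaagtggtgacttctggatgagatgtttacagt
C4bpa: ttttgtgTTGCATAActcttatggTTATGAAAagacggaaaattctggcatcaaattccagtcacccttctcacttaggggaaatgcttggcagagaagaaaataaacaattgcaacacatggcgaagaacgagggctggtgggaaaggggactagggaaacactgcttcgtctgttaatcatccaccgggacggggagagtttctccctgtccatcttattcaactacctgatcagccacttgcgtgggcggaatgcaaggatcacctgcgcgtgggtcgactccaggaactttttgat
C5 held the HNF1 pattern from base -34 to -25 and a C/EBP match from -12 to -5, C8a held 2 C/EBP matches and 1 STAT match, and C4bpa held 2 C/EBP matches. A promoter was listed for 22 of the 32 genes, at the outer edge of the gene for 13 and inside it for 9. The C/EBP pattern occurred in 10 of the 12 listed hepatocyte-made genes and in 1 of the 6 listed macrophage-made genes, against 40.8% of all 27457 rat promoters of this length. The STAT pattern occurred in 3 of the 12 and 1 of the 6, against 8.68% of all promoters, and the HNF1 pattern in C5 alone of the 22, against 0.346%. The pattern of the macrophage factor PU.1 (GAGGAA, either strand, not in capitals here) occurred in 3 of the 12 and 3 of the 6, against 27.5%. No 2 matches overlap in the promoters printed here. A match is a run of letters and not a shown binding site.

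In PH90 livers 24 of the 32 complement genes were lower than in sham livers and 1 was higher. That is 75% lower, where 14.7% of all genes were lower. Members of every route were among them, with falls of up to 6.16-fold in the lectin pathway and of 1.16-fold for C3. In 22 of the 24 every PH90 rat lay below every sham rat, and C7 and C8b are the others. The share of all genes that separate in this way is not given here, so this count describes these genes only.

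The lectin pathway had the largest falls. Of its 8 measured initiators 7 were lower. Mbl2, a mannose-binding lectin that recognises microbial sugars, had a lowest, median and highest of -3.00, -1.91 and -0.86 in PH90, against 0.50, 0.62 and 1.07 in sham, a difference of -2.62 or 6.16-fold lower (SE 0.26, adjusted p = 2.1e-09). Mbl1, the second mannose-binding lectin of the rat, lay at -2.85, -1.71 and -1.17 in PH90, against 0.02, 0.11 and 0.25 in sham (-2.07, 4.19-fold lower, SE 0.18, adjusted p = 2.8e-10). Rats 61 and 106 had the lowest values of both genes within PH90. Colec10, a collectin that pairs with Colec11, lay at -1.60, -1.27 and -1.15 in PH90, against -0.03, 0.12 and 0.29 in sham (-1.46, 2.76-fold lower, adjusted p = 5.4e-12). Colec11 was lower by a smaller amount (-0.88, adjusted p = 7.6e-07). The serine proteases that these lectins activate also fell, Masp1 by 1.27 and Masp2 by 0.93 on the log2 scale (adjusted p = 1.1e-10 and 5.5e-09). The ficolin gene Fcna fell by 0.59 (adjusted p = 8.4e-05). Fcnb was not called, at -0.06 with a 95% interval from -0.24 to 0.12.

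The promoters of the 2 mannose-binding lectin genes are shown because these genes had the largest falls. The Mbl1 promoter is at chr16:17062982-17063281 (plus strand) and the Mbl2 promoter at chr1:237430793-237431092 (plus strand), with capitals as above. The Mbl1 start site is the outer edge of the gene, whereas that of Mbl2 lies 1170 bases inside it, so the whole Mbl2 window is within the annotated gene and another start upstream is not shown.
Mbl1: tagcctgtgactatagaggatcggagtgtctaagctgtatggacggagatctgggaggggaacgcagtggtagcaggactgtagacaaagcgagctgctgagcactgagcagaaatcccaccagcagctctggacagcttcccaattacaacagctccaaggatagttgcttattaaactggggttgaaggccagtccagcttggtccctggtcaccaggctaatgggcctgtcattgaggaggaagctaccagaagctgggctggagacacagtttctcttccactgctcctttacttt
Mbl2: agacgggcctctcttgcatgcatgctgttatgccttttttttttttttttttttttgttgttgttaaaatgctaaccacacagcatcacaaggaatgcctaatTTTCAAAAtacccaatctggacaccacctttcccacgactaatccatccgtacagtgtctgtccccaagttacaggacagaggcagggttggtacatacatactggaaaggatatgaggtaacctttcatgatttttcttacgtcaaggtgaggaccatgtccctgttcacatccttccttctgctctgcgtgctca
Mbl2 held 1 C/EBP match, from base -147 to -140, and the Mbl1 window held no match to these 3 patterns. The Mbl1 promoter held the PU.1 letters from base -10 to -5.

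Within the classical pathway 3 of the 5 measured initiators were lower: both proteases and C1qb. C1s, the protease of C1 that cleaves C4 and C2, lay at -2.57, -1.31 and -0.88 in PH90, against 0.28, 0.40 and 0.52 in sham (-2.00, 4.01-fold lower, SE 0.20, adjusted p = 2.4e-09). C1r, which activates C1s, lay at -1.58, -0.79 and -0.60 in PH90, against 0.13, 0.28 and 0.45 in sham (-1.21, 2.32-fold lower, SE 0.13, adjusted p = 7.7e-09). Rats 61 and 106 were again the lowest for C1s. The C1q chains, which bind antibody and are made by macrophages, differed less. C1qb lay at -0.36, -0.19 and -0.01 in PH90, against 0.01, 0.24 and 0.40 in sham (-0.39, SE 0.12, adjusted p = 0.011). C1qa (-0.25, 95% interval -0.50 to -0.00070, adjusted p = 0.12) and C1qc (-0.24, interval -0.47 to -0.01, adjusted p = 0.1) were not called. Without rats 95 and 139 both were called lower, with the same differences (adjusted p = 0.03 for C1qa and 0.023 for C1qc), and C1qc also with array weights (-0.28, adjusted p = 0.019). Against unoperated livers C1qb was not called in PH90 (-0.05, 95% interval -0.30 to 0.19). The C1q genes lie side by side on chromosome 5 of GRCr8, C1qb at 154402276 to 154407827, C1qc at 154410845 to 154414208 and C1qa at 154417086 to 154419933. Their differences have overlapping intervals.

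C3, the convergence point of all pathways, was lower by a small amount. It lay at -0.30, -0.19 and -0.05 in PH90, against -0.01, 0.04 and 0.06 in sham (-0.22, 1.16-fold lower, SE 0.04, adjusted p = 0.00012). In the alternative pathway, factor B (Cfb) fell by 0.68 (adjusted p = 1.3e-07). Properdin (Cfp), which stabilises the convertase, lay at -0.89, -0.74 and -0.56 in PH90, against 0.03, 0.19 and 0.44 in sham (-0.97, 1.96-fold lower, SE 0.14, adjusted p = 1.7e-06). It had the largest fall of the macrophage-made genes. Factor D (Cfd), known in rodents as an adipocyte product, was not called (-0.07, 95% interval -0.21 to 0.08).

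All 7 terminal components were lower in PH90. C5 lay at -2.18, -1.28 and -0.94 in PH90, against 0.13, 0.19 and 0.40 in sham (-1.57, 2.97-fold lower, SE 0.12, adjusted p = 1.1e-11). C8a lay at -1.16, -0.82 and -0.48 in PH90, against 0.31, 0.39 and 0.44 in sham (-1.18, SE 0.09, adjusted p = 1.2e-11). C6 fell by 1.14 (adjusted p = 1.6e-06), C9 by 0.98 (adjusted p = 6.3e-07) and C8g, the gamma chain of C8, by 0.75 (adjusted p = 1.6e-08). C8b, the beta chain, lay at -1.39, -0.57 and -0.32 in PH90, against -0.32, 0.20 and 1.05 in sham (-1.06, SE 0.27, adjusted p = 0.0021). C7 lay at -0.95, -0.63 and -0.18 in PH90, against -0.37, 0.36 and 1.41 in sham (2.00-fold lower, SE of the log2 difference 0.25, adjusted p = 0.0021). For these 2 genes the groups overlapped, and the sham rats alone spread over more than 1 log2 unit.

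Of the 5 measured soluble regulators 4 were lower in PH90. C4bpa lay at -0.75, -0.70 and -0.36 in PH90, against 0.15, 0.29 and 0.39 in sham (-0.92, 1.89-fold lower, SE 0.08, adjusted p = 2.1e-10). Its partner chain C4bpb, between -0.55 and 0.37 in PH90 against -0.06 and 0.14 in sham, was not called (-0.10, 95% interval -0.33 to 0.13). C4bpb was the only hepatocyte-made gene not called in this comparison. Serping1 fell by 0.77 (adjusted p = 1.3e-06). Vtn, encoding vitronectin, fell by 0.52 (adjusted p = 4.7e-08) and Clu, encoding clusterin, by 0.30 (adjusted p = 0.018); both proteins keep the terminal complex out of membranes. Against unoperated livers Clu was not called in PH90 (-0.10, interval -0.30 to 0.11). The membrane regulator Cd55, which dissociates convertases on a cell's own surface, was the 1 gene that rose. It lay at 0.07, 0.39 and 1.03 in PH90, against -0.12, -0.03 and 0.06 in sham (0.45, 1.37-fold, SE 0.11, adjusted p = 0.0011). Every PH90 rat lay above every sham rat, and the PH90 rats spread more widely. Cd46, another membrane regulator, was not called (-0.07, interval -0.26 to 0.13). C3ar1, the receptor for C3a, was not called either (-0.00023, interval -0.20 to 0.20).

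**Figure D3:**
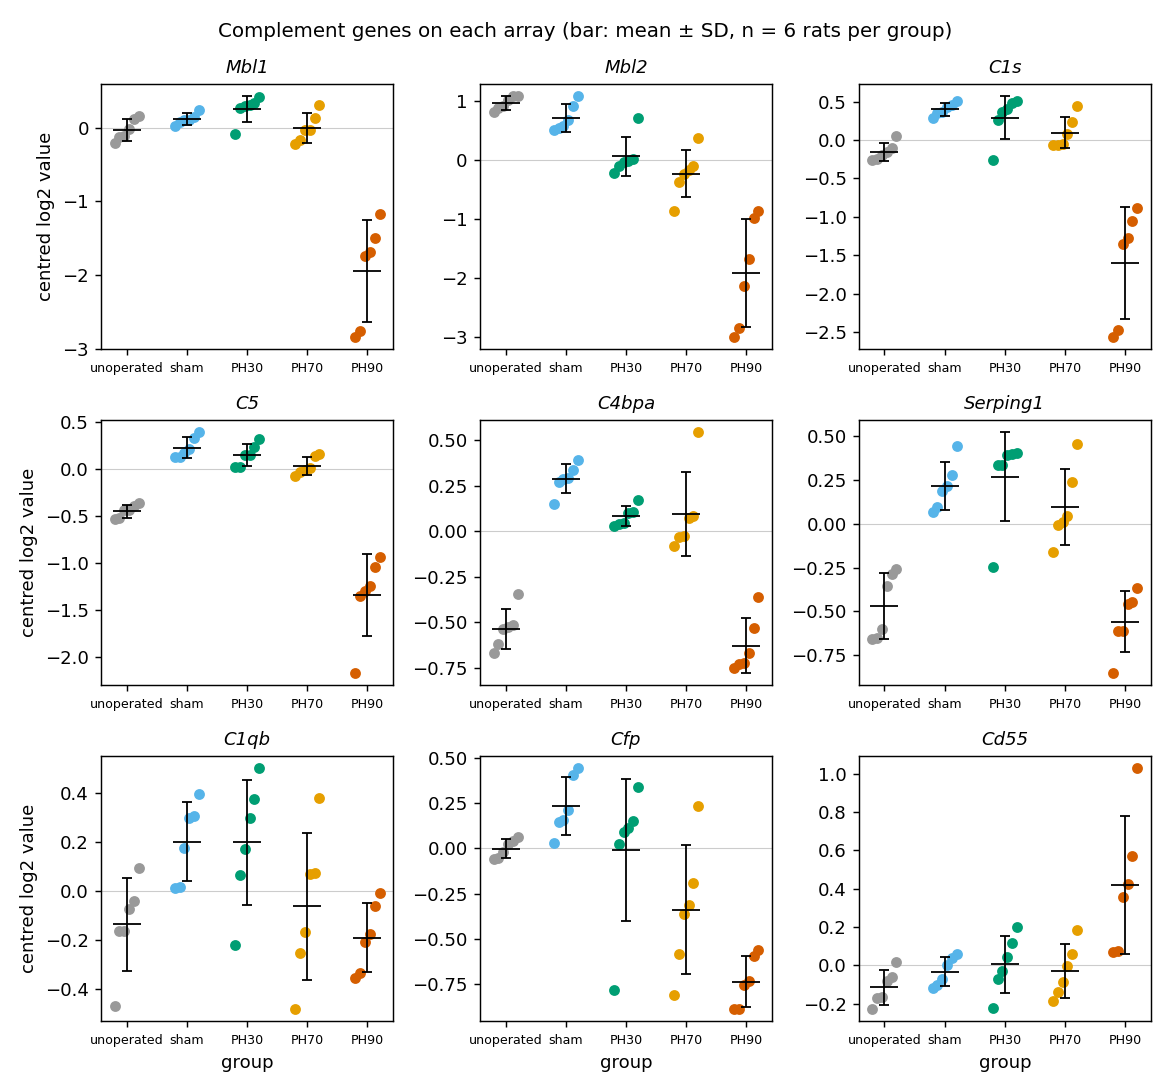
Centred log2 values of single complement genes in each of the 6 rats per group (points), with the group mean ± SD (bars), for unoperated, sham, PH30, PH70 and PH90 livers. Mbl1, Mbl2, C1s and C5 lie lowest in PH90 with a wide spread between rats, and Cd55 lies higher in PH90 (0.07 to 1.03) than in sham (-0.12 to 0.06).

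After the 70% resection 9 of the 32 genes were lower than in sham and 0 were higher, against 18.6% called among all genes, 8.15% lower and 10.5% higher. At an unadjusted p below 0.05, 15 were lower and 1 was higher, against 2536 lower and 2667 higher of all 18166 genes. Of the 9 called, 6 were hepatocyte-made, 1 was macrophage-made (Cfp) and 2 were collectins. Mbl2 lay at -0.86, -0.21 and 0.37 in PH70, against 0.50, 0.62 and 1.07 in sham (-0.94, 1.92-fold lower, SE 0.26, adjusted p = 0.0096). C8g lay at -0.64, -0.36 and 0.01 in PH70, against 0.21, 0.27 and 0.35 in sham (-0.59, SE 0.08, adjusted p = 1.3e-05). In these genes and in C8a (-0.36, adjusted p = 0.0038) the groups did not overlap. In the other 6 they did: Colec11 (-0.63, adjusted p = 0.00036), Cfp (-0.57, adjusted p = 0.0038), Clu (-0.55, adjusted p = 0.00017), Masp1 (-0.38, adjusted p = 0.011), Colec10 (-0.33, adjusted p = 0.03) and Vtn (-0.32, adjusted p = 0.00032). How many of all genes separate without overlap is not given here. The call of Colec10 was lost when any 1 of 7 rats was left out (PH70 rats 37, 58, 59 and 136, and sham rats 112, 141 and 143). Without rat 139, or without rats 95 and 139 together, 15 genes were lower in place of 9, and 16 were lower with array weights. The share of all genes called in these other fits is not given here.

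After the 30% resection 2 genes were lower than in sham and 0 were higher, which is 6.25% of the 32 genes lower, against 5.53% called among all genes, 3.34% lower and 2.20% higher. At an unadjusted p below 0.05, 7 were lower and 0 higher, against 1871 lower and 1785 higher of all 18166 genes. Clu lay at -0.22, -0.15 and 0.19 in PH30, against 0.22, 0.29 and 0.34 in sham (-0.38, SE 0.10, adjusted p = 0.021). C8g lay at -0.15, -0.05 and 0.06 in PH30, against 0.21, 0.27 and 0.35 in sham (-0.32, SE 0.08, adjusted p = 0.021). The groups did not overlap for either gene, and both genes were also lower in PH70. How many of all genes separate without overlap is not given here. The Clu call was lost without PH30 rat 65, which left C8g alone, while 5 genes were lower without PH70 rat 139. Without rats 95 and 139, 6 genes were lower and 1 was higher. The share of all genes called in these other fits is not given here.

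Size of resection was compared directly between the resected groups. Between PH70 and PH30 no complement gene was called by limma, against 2.27% of all genes (1.76% higher and 0.512% lower). At an unadjusted p below 0.05, 8 genes were lower and 1 was higher, against 1371 lower and 1809 higher of all 18166 genes. The median difference was -0.17 over the hepatocyte-made genes, -0.24 over the macrophage-made genes and -0.017 over all genes. At that unadjusted p 3 of the 19 hepatocyte-made and 4 of the 7 macrophage-made genes were lower, and 1 macrophage-made gene was higher. Without rats 95 and 139, 13 genes were lower in PH70 than in PH30. Among them were the macrophage-made C1qa, C1qb, C1qc, Cfp and Fcna, and the hepatocyte-made C1r, C8g, Cfb, Masp1, Serping1 and Vtn. With array weights 10 genes were lower. Without rat 95 alone 5 were lower, without rat 139 alone 7, and without PH30 rat 99 a single gene. The share of all genes called in these other fits is not given here, so whether these rises are particular to complement genes is not shown. Between PH90 and PH70, 19 genes were lower and 1 (Cd55) was higher, against 24.5% called among all genes, 10.4% lower and 14.1% higher. Mbl1 was 3.85-fold lower in PH90 than in PH70 (-1.95, SE 0.18, adjusted p = 3.6e-09), C1s 3.25-fold (-1.70, SE 0.20, adjusted p = 1.6e-07), Mbl2 3.21-fold (-1.68, SE 0.26, adjusted p = 1.1e-05) and C5 2.60-fold (-1.38, SE 0.12, adjusted p = 6e-10). For Mbl1, C1s and C5 every PH90 rat lay below every PH70 rat, and for Mbl2 the groups overlapped.

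Hepatocyte-made genes made up 16 of the 19 that were lower in PH90 than in PH70, with a median of -0.72 over the class, against a median of -0.14 over the macrophage-made genes and 0.0087 over all genes. Among macrophage-made genes Cfp (-0.40, adjusted p = 0.037) and Fcnb (-0.27, adjusted p = 0.023) were lower. These calls were lost when any 1 of 8 rats was left out for Cfp (PH70 rats 58, 59, 136 and 139, PH90 rats 39, 43, 87 and 106) and any 1 of 3 for Fcnb (PH70 rats 59 and 139, PH90 rat 39). The call of C8b (-0.72, adjusted p = 0.05) stood at the threshold and was lost in 19 of 30 such fits. Of the 9 genes that were lower in PH70 than in sham, C8g (-0.16, 95% interval -0.33 to 0.0081), Colec11 (-0.25, interval -0.50 to -0.0025) and Clu (0.25, interval 0.05 to 0.45) were not called between PH90 and PH70. The other 6 were lower in PH90, though the call of Vtn (-0.20, adjusted p = 0.014) was lost in a fit of these 2 groups alone. Without rats 95 and 139, 17 genes were lower and 2 higher in PH90 than in PH70: C8b and Fcnb were no longer called, and Clu was added as higher. Between PH90 and PH30, 25 genes were lower and 1 (Cd55) was higher, against 31.5% called among all genes, 13.1% lower and 18.4% higher. Lower were 17 of the 19 hepatocyte-made genes, with a median of -0.91, and 5 of the 7 macrophage-made genes, with a median of -0.39. The median over all genes was -0.017. C1qa (-0.43, adjusted p = 0.0065), C1qb (-0.39, adjusted p = 0.013) and C1qc (-0.37, adjusted p = 0.01) were all lower in this comparison, though the call of C1qc was lost in a fit of these 2 groups alone. Leaving out rats 95 and 139 gave 26 lower, with Cfd added. Any difference among PH30, PH70 and PH90 was called by limma's F test for 27 of the 32 genes, against 32.4% of all genes, and for 28 without rats 95 and 139. C7, C4bpb, Cd46, C3ar1 and Clu were the 5 without a call in the main fit. Shares of all genes called without rats 95 and 139 are not given here.

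**Figure D4:**
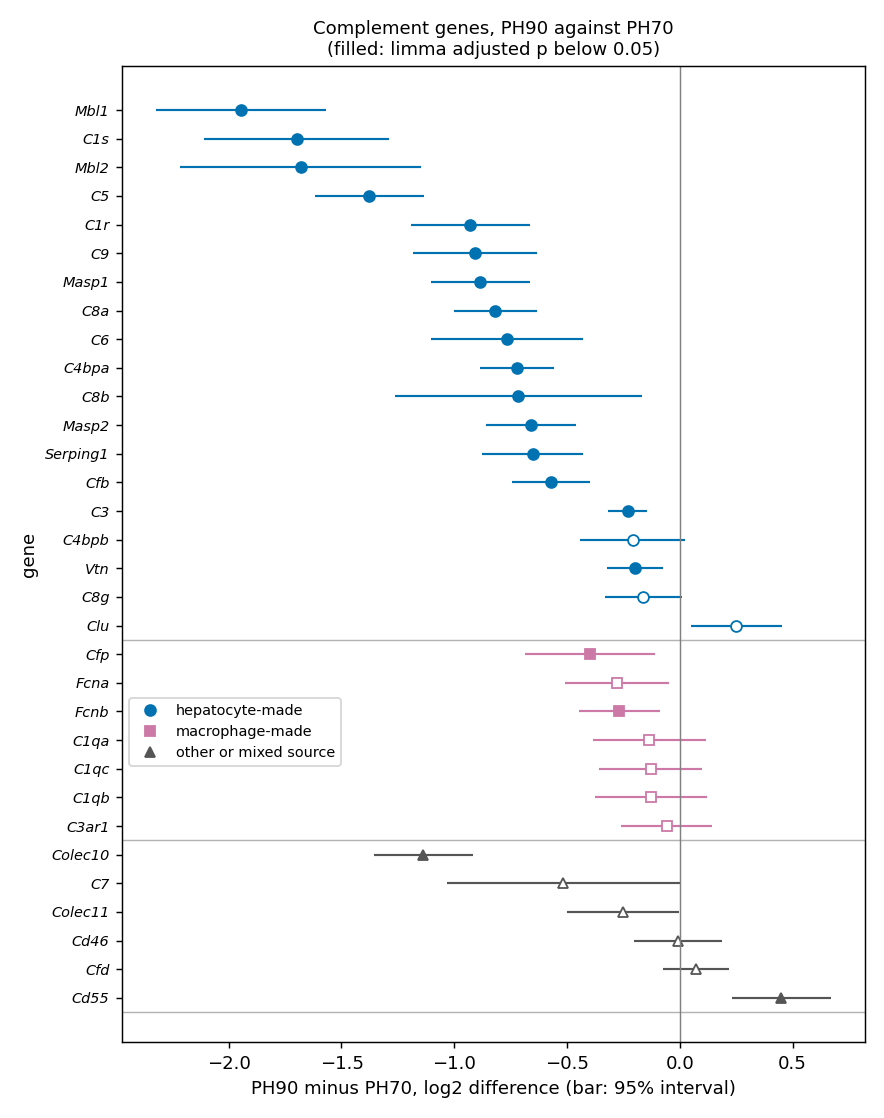
Log2 difference PH90 minus PH70 of each complement gene (points, down the page by class and size) with its 95% interval (bars); filled points have a limma adjusted p below 0.05. Most hepatocyte-made genes lie left of 0, up to -1.95 for Mbl1, while the 7 macrophage-made genes lie between -0.40 and -0.06.

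The genes that were higher in sham than in unoperated livers were also set against the unoperated rats. C4bpa lay at -0.75, -0.70 and -0.36 in PH90, against -0.67, -0.53 and -0.35 in unoperated livers (-0.09, 95% interval -0.26 to 0.07), and was not called. Serping1 (-0.09, interval -0.31 to 0.14) and C9 (-0.29, interval -0.56 to -0.01) were not called either. C5 (-0.90, adjusted p = 4e-07) and C8a (-0.63, adjusted p = 1.2e-06) were lower in PH90 than in unoperated livers, without overlap. In PH70, C4bpa (0.63, adjusted p = 3e-06), C9 (0.62, adjusted p = 0.0012), Serping1 (0.56, adjusted p = 0.00046) and C5 (0.48, adjusted p = 0.0042) were above unoperated livers without overlap. PH30 livers were above unoperated for the same 4 genes and for C8a (0.33, adjusted p = 0.016). Over all 32 genes, PH90 was lower than unoperated for 19 and higher for 2, Cd55 and C3ar1 (33.8% of all genes called, 14.5% lower and 19.3% higher). PH70 was lower for 7 and higher for 7 (18.5% of all genes called, 9.17% lower and 9.31% higher), and PH30 lower for 2 and higher for 10 (9.85% of all genes called, 6.37% lower and 3.48% higher). In PH90 against unoperated livers 14 of the 19 hepatocyte-made genes were lower, with a median of -0.63. Of the 7 macrophage-made genes 2 were lower and 1 was higher, with a median of -0.05, against 0.010 over all genes. All these comparisons share the 6 unoperated rats.

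Acute phase genes are the other liver products that surgery is known to raise. Of 14 measured genes on such a list, 10 were higher in sham than in unoperated livers and 0 lower, among them Lcn2 (3.72), A2m (3.28), Lbp (1.88) and Orm1 (1.66), with adjusted p between 6.2e-08 and 1.4e-05 for these 4. In PH90 compared with sham, 6 were higher and 2 were lower, which is 42.9% and 14.3% of the 14, against 19.9% higher and 14.7% lower among all genes. Lcn2, the iron-siderophore binder lipocalin 2, lay at 1.09, 1.24 and 1.37 in PH90, against -2.32, -1.70 and -0.24 in sham (2.73, adjusted p = 1.8e-05). A2m, a protease inhibitor, was also higher (1.58, adjusted p = 0.0011), as was Hamp, encoding hepcidin (0.90, adjusted p = 0.0012). Ceruloplasmin (Cp) was lower (-1.04, adjusted p = 4.3e-10). The mean of the list ran from 0.11 to 0.20 in PH90 and from -0.33 to -0.02 in sham, beside a hepatocyte-made complement mean of -1.21 to -0.52 in PH90 and 0.22 to 0.28 in sham. As group means the list stood at 0.12 in PH30, 0.20 in PH70 and 0.15 in PH90, so a mean above that of sham (-0.16) was not particular to PH90. Between PH90 and PH70, 2 of the 14 were higher (14.3%) and 4 were lower (28.6%). Among all genes 14.1% were higher and 10.4% lower in that comparison.

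**Figure D5:**
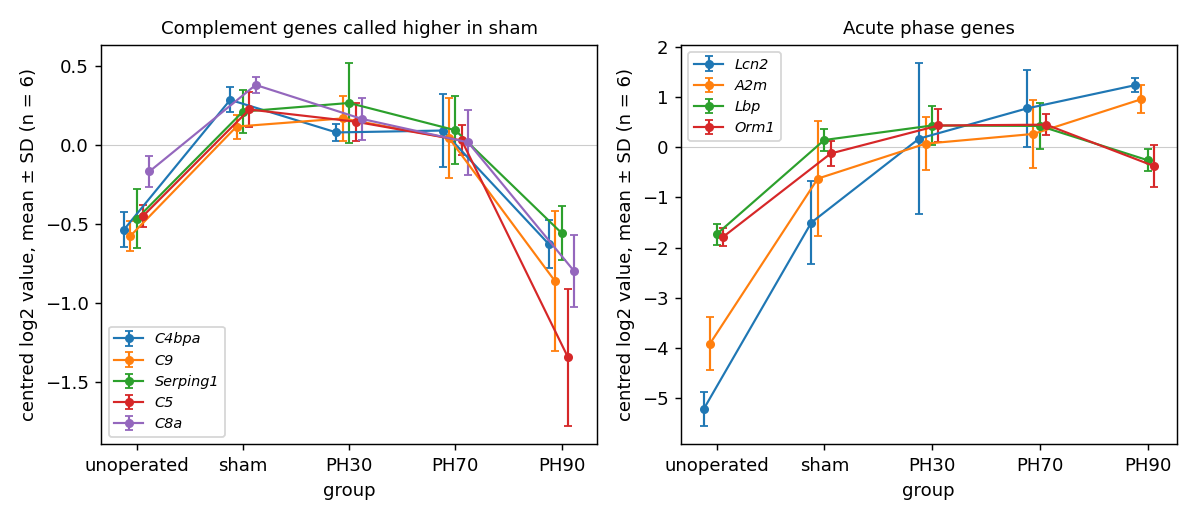
Group mean ± SD (n = 6 rats) of the centred log2 value in unoperated, sham, PH30, PH70 and PH90 livers for the 5 complement genes that were higher in sham than unoperated (left) and for 4 acute phase genes (right, on a wider scale). Both sets are higher in sham than in unoperated livers. In PH90 the 5 complement genes lie below sham. Of the acute phase genes, Lcn2 (1.23) and A2m (0.95) lie above sham in PH90, and Lbp (-0.26) and Orm1 (-0.38) below it.

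Markers of liver cell types moved in the same livers. The counts below stand against 14.7% lower and 19.9% higher among all genes in PH90 against sham, and several lists lie near those shares. Of 15 measured macrophage markers, 8 were lower in PH90 than in sham and 2 were higher. Slc40a1 (-1.09), Csf1r (-1.07), Cd5l (-1.01) and Adgre1 (-0.91) had the largest differences, with adjusted p of at most 5e-05. The list's mean per rat ran from -0.53 to -0.06 in PH90 and from -0.05 to 0.15 in sham, beside the macrophage-made complement mean of -0.41 to -0.06 in PH90 and 0.0026 to 0.32 in sham. Of 8 measured hepatocyte markers, 4 were lower, Rbp4 by 0.65 and Ahsg by 0.29 among them, and Tat was higher (0.66, adjusted p = 0.015). Their mean ran from -0.06 to 0.02 in PH90 and from -0.0048 to 0.20 in sham. Stellate cells are a known source of collectins in liver. Of 10 stellate cell or fibroblast markers 4 were lower in PH90, with Lrat lower by 1.88 on the log2 scale, and 2 were higher, with Des at 1.04. Of 4 measured sinusoidal endothelium markers 3 were lower, Oit3 (-1.64) and Clec4g (-1.45) among them. In PH90 against sham 3 of 9 neutrophil markers were higher, S100a8 by 0.56 and Cxcr2 by 0.41 among them. Also 3 of 8 lymphocyte markers were lower, with Cd4 at -1.05, 1 of 5 bile duct markers was higher (20%, Epcam, 0.51), and limma called none of 5 adipocyte or mesothelium markers (0 at an unadjusted p below 0.05). Of 4 red cell markers 3 were lower in PH90, and their mean per rat ran from -0.33 to 0.05 in PH90 and from 0.25 to 0.57 in sham. In PH70 against sham 4 macrophage markers were lower and 1, Marco, was higher (0.92, adjusted p = 0.0015), beside the 1 macrophage-made complement gene called. Among all genes 8.15% were lower and 10.5% higher in that comparison. In sham against unoperated livers limma called none of the 15 macrophage markers (2 higher at an unadjusted p below 0.05) and 1 of the 8 hepatocyte markers (Ttr, -0.21, adjusted p = 0.024). Among all genes 0.429% were called lower and 0.308% higher there, and 903 of 18166 were higher at an unadjusted p below 0.05. The part of cell makeup in the complement differences was not tested.

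Further genes of the complement system outside the list of 38, 20 of 25 measured, were also tested. In PH90 compared with sham 8 were lower and 4 were higher, which is 40% and 20% of the 20, against 14.7% lower and 19.9% higher among all genes. Cpn1, the catalytic chain of carboxypeptidase N, which inactivates C3a and C5a, lay at -2.93, -1.58 and -1.08 in PH90, against 0.13, 0.25 and 0.33 in sham (-2.12, adjusted p = 2.1e-09). Its other chain Cpn2 was lower too (-1.01, adjusted p = 3.5e-08), as was the carboxypeptidase Cpb2 (-0.72, adjusted p = 4.2e-07). Vsig4, a complement receptor of Kupffer cells, was lower (-0.85, adjusted p = 0.00021), and so was C1rl, a relative of C1r (-1.10, adjusted p = 6.3e-07). Cd59b, a membrane inhibitor of the pore, was lower by 1.01 on the log2 scale (adjusted p = 5.4e-05) and had been lower in PH70 as well (-0.89, adjusted p = 0.00078). C1qbp, a mitochondrial protein also known as a C1q binder, lay at 0.93, 1.12 and 1.42 in PH90, against -0.43, -0.22 and -0.11 in sham (1.38, adjusted p = 4.8e-13). The membrane proteins Cd93 (0.66, adjusted p = 0.00012) and Cr1l, a regulator of C3 convertases in rodents (0.55, adjusted p = 1.1e-06), were higher. In sham compared with unoperated limma called none of the 20, and 3 were higher at an unadjusted p below 0.05, against 903 of all 18166 genes.

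The probe set shared by C4a and C4b, whose product the C1s and mannose-binding lectin proteases cleave, was lower in PH90 and higher in sham than in unoperated livers. It lay at -1.88, -1.52 and -1.24 in PH90, against 0.19, 0.45 and 0.54 in sham (-1.94, SE 0.15, adjusted p = 2e-11). Sham in turn lay above unoperated livers, where the values were -0.70, -0.51 and -0.14 (0.89, SE 0.15, adjusted p = 0.0016). Which of the near-identical genes the signal came from cannot be told from this probe set.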

How the data were processed

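Liver RNA of 30 rats was measured on 30 arrays, 6 per group. The authors deposited log2 values of 29489 probe sets, made with RMA in Affymetrix Expression Console per the submitters' processing notes (versions not given in the sources used here). The log2 scale is taken from RMA and is not stated in the table. The values run from -6.04 to 5.44, and each probe set has a median of 0 over the arrays within 5e-07, so levels and signal over background are lost and no filter on low values could be set. Array medians lie between -0.0088 and 0.02.

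Probe sets were named from the platform annotation: 18511 had 1 symbol, 575 several and 10403 no listed gene. Probe sets of a gene were averaged (291 genes had more than 1), which left 18166 genes. Every gene entered a limma fit (version 3.58.1, R 4.3.3) with 1 mean per group over 30 arrays, eBayes (25 residual and 3.71 prior degrees of freedom), two-sided, and Benjamini-Hochberg adjustment over all genes of a comparison. A call is an adjusted p below 0.05, and adjusted p always refers to limma. Rat numbers are unique and pair no rats. Nothing in the labels says how rats were housed or processed together, so p-values measure the spread between these rats.

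The complement genes and all lists (source, role, other complement genes, acute phase genes, markers) were chosen with earlier results of these data known. Every complement gene could be named, up to 10 called other complement genes per comparison, and up to 4 called members of each marker list and of the acute phase list by size of change. Promoters come from RefSeq (GRCr8). The fits were tested on simulated data. Alternatives were the groups compared alone, array weights, a robust prior, arrays centred on their medians, probe sets tested singly, the shared C4 probe set added, rats 95 and 139 left out, unoperated rats as control, and each rat left out in turn.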

Additional observations from a re-analysis of the deposited data

Results flagged for a closer look

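A rat was singled out where its value lay far from the other 5 of its group relative to the group's range (Dixon's test at 95%). Of 160 combinations of a complement gene and a group 14 were singled out. Chance singles out about 1 in 20 of independent combinations. These genes share the same arrays and are not independent, so no excess over chance is read from the count. PH30 rat 95 accounted for 9 of the 14. It was low for C1r (-0.29, other PH30 rats 0.30 to 0.37), C1s (-0.26, others 0.27 to 0.51), C1qc (-0.38, others 0.21 to 0.50) and Serping1 (-0.25, others 0.33 to 0.40). It was also low for Cfb (-0.17, others 0.18 to 0.33), Cfp (-0.78, others 0.03 to 0.34), Mbl1 (-0.085, others 0.27 to 0.42) and Masp1 (-0.16, others 0.08 to 0.18), and high for Mbl2 (0.71, others -0.22 to 0.01). The mean of the 15 macrophage markers in rat 95, -0.25, was the lowest of PH30, where the highest was 0.30.

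PH70 rat 139 was high for C4bpa (0.55, other PH70 rats -0.08 to 0.09) and Colec11 (0.38, others -0.63 to -0.32), and its macrophage marker mean of 0.41 was the highest of PH70. PH90 rat 106 was low for C5 (-2.18, other PH90 rats -1.35 to -0.94) and Cfb (-0.80, others -0.49 to -0.31). Unoperated rat 151 was high for C8a (0.030, other unoperated rats -0.24 to -0.17). The cause of these distances was not tested.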

How the results depend on the processing

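Counts of complement genes called in PH90 minus sham, PH90 minus PH70, PH90 minus PH30 and the F test stayed within 1.5 times their value under every alternative run. With the compared groups alone, the count was 11 for sham minus unoperated (in place of 5), 5 for PH30 minus sham (in place of 2) and 14 for PH70 minus sham (in place of 9). With array weights the counts were 9, 4 and 16, and 10 for PH70 minus PH30 (in place of 0). Without rats 95 and 139 they were 7 for PH30 minus sham, 15 for PH70 minus sham and 13 for PH70 minus PH30. Counts over all genes under these alternatives are not given here, so whether these rises are particular to complement genes is not shown. With unoperated rats as the control, 12 were called for PH30 (10 higher, 2 lower) and 14 for PH70 (7 higher, 7 lower). With that control 22 of 32 differences were above 0 in PH30 (12 against sham), 18 in PH70 (5 against sham) and 4 in PH90 (1 against sham). Among genes called against either control the sign turned for C5 (0.60), C8a (0.33), Cfb (0.32) and C4bpa (0.62) in PH30, for C5 (0.48), C8a (0.18), C9 (0.62), C4bpa (0.63) and Serping1 (0.56) in PH70, and for C3ar1 (0.26) in PH90. The cause of these changes was not tested. Leaving out each rat in turn gave 5 to 7 calls for sham minus unoperated, 1 to 5 for PH30 minus sham, 8 to 15 for PH70 minus sham, 25 to 27 for PH90 minus sham, 0 to 7 for PH70 minus PH30, 17 to 22 for PH90 minus PH70, 25 to 27 for PH90 minus PH30 and 22 to 28 for the F test. No paired analysis was possible because no number is shared by rats of different groups. Precision is limited by 6 arrays per group.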
